A study of Sus scrofa with 12 samples.

Results

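The genes described here are 10 genes of cellular force sensing, namely the channels PIEZO1, PIEZO2 and TRPV4, the transcriptional coactivators YAP1 and WWTR1, their DNA-binding partner TEAD1, and CCN1, CCN2, AMOTL2 and AJUBA, which are targets or regulators of YAP. They were chosen by name from the literature on mechanosensing, by a choice made with earlier results of these libraries known, so their border zone and remote zone values are given as a description. Where a gene of the 10 is said to pass a threshold, this is its place in the fit across all genes and supports nothing about it. All 10 were found among the 35682 genes counted, of which 15623 had a symbol, and all 10 passed the filter on low counts that left 13844 genes. The 12 libraries came from the hearts of 6 Yorkshire pigs, with 1 border zone and 1 remote zone library from each animal, both labelled Mid. They are named here by the animal numbers 1022, 1322, 1323, 1623, 1922 and 3622. The authors took the border zone next to the infarct and the remote zone from the posterior wall, so region and wall position cannot be told apart. All animals had a balloon occlusion of the left anterior descending artery for 60 min and then reperfusion, and all received tacrolimus at 0.75 mg/kg/day, mycophenolate mofetil at 500 mg/day and prednisolone at 20 mg/day from day 9. On day 14, some animals received sheets of human endothelial progenitor cells and smooth muscle cells on the heart, held by fibrin glue. The others received fibrin glue alone. The labels do not say which animal received which, so both treatments are pooled within each region and values are given for each library or by their lowest, median and highest. The age of the animals is not given in the labels used here.

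PIEZO1 and PIEZO2 are large cation channels of the plasma membrane that open when the membrane is stretched, and TRPV4 is a cation channel gated by cell swelling, warmth and lipid mediators. YAP1 and WWTR1 (whose protein is TAZ) carry mechanical and Hippo kinase signals to the nucleus. The kinases LATS1 and LATS2 phosphorylate both proteins and hold them in the cytoplasm. On stiff matrix or under stretch YAP and TAZ enter the nucleus, bind TEAD factors and switch on genes such as CCN1 and CCN2, which encode secreted matricellular proteins. The activity of YAP and TAZ is set largely by where the proteins are in the cell, which RNA levels do not show. In the injured heart this signalling is best known from fibroblasts, and CCN2 is widely used as a marker of matrix formation.

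CCN2, CCN1 and AJUBA were the genes among the 10 whose promoters held the TEAD core motif, searched as CATTCC and its reverse complement GGAATG in the 250 bases before the annotated start. The sequences are shown because CCN2 and CCN1 are the classic YAP and TEAD targets. They were read from the RefSeq annotation of Sscrofa11.1, the build of the files, in the direction of transcription, with the motif in capitals. The window of CCN2 is chr1:31674148-31674397 on the plus strand, that of CCN1 is chr4:130395180-130395429 on the minus strand, and that of AJUBA is chr7:76062759-76063008 on the plus strand.
CCN2: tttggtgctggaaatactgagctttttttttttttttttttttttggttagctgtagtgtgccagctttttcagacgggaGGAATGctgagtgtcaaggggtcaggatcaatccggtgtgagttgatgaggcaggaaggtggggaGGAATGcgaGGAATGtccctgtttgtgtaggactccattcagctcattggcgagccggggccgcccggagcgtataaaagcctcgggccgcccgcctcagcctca
CCN1: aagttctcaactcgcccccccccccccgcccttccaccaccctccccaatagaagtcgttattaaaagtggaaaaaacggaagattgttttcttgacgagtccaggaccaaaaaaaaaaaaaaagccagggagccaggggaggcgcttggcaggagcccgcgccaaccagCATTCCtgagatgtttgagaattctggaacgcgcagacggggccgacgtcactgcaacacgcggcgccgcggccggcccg
AJUBA: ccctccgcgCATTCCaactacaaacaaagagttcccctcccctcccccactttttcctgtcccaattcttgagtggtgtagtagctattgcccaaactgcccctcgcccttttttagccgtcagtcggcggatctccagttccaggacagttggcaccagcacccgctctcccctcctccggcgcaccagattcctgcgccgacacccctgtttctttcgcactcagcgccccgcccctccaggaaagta
The CCN2 window held 3 matches, which began 170, 105 and 96 bases before the start. The CCN1 window held 1 match, 80 bases before the start, and the AJUBA window held 1 match, 241 bases before the start. Of 19556 promoter windows of the same length, 10.3% held the motif. No match was found in the windows of PIEZO1, PIEZO2, TRPV4, YAP1, WWTR1, TEAD1 and AMOTL2, which says only that these letters are absent from those windows. The AP-1 motif TGACTCA, searched on both strands and present in 2.90% of all windows, and the CArG box, present in 1.31%, were not found in the windows of the 10 genes. A match is a stretch of letters and no measurement of binding.

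Between border zone and remote zone, 1 of the 10 genes, PIEZO2, passed the threshold of an adjusted p of 0.05 (edgeR quasi-likelihood, Benjamini-Hochberg), beside 287 of 13844 genes tested, or 2.07%, of which 285 were higher and 2 were lower in the border zone. With the animal as a replicate block, again 1 of the 10, PIEZO2, passed, beside 41 genes or 0.296% of all. In all 6 animals the border zone was higher for PIEZO1, PIEZO2, WWTR1 and CCN2, a pattern held by 1619 genes or 11.7%. For PIEZO1 and PIEZO2 all border zone libraries lay above all remote zone libraries, which held for 276 genes or 1.99%. The median log2 fold change was 0.49 over the 10 genes and 0.04 over all genes tested. Because the genes were chosen with this comparison known, these counts are not evidence about mechanosensing genes as a group. With animal 1623 or 3622 left out, 0 genes of any kind passed. The plot of CPM, the counts scaled to a common library size with TMM factors, by library shows each pair.

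**Figure D1:**
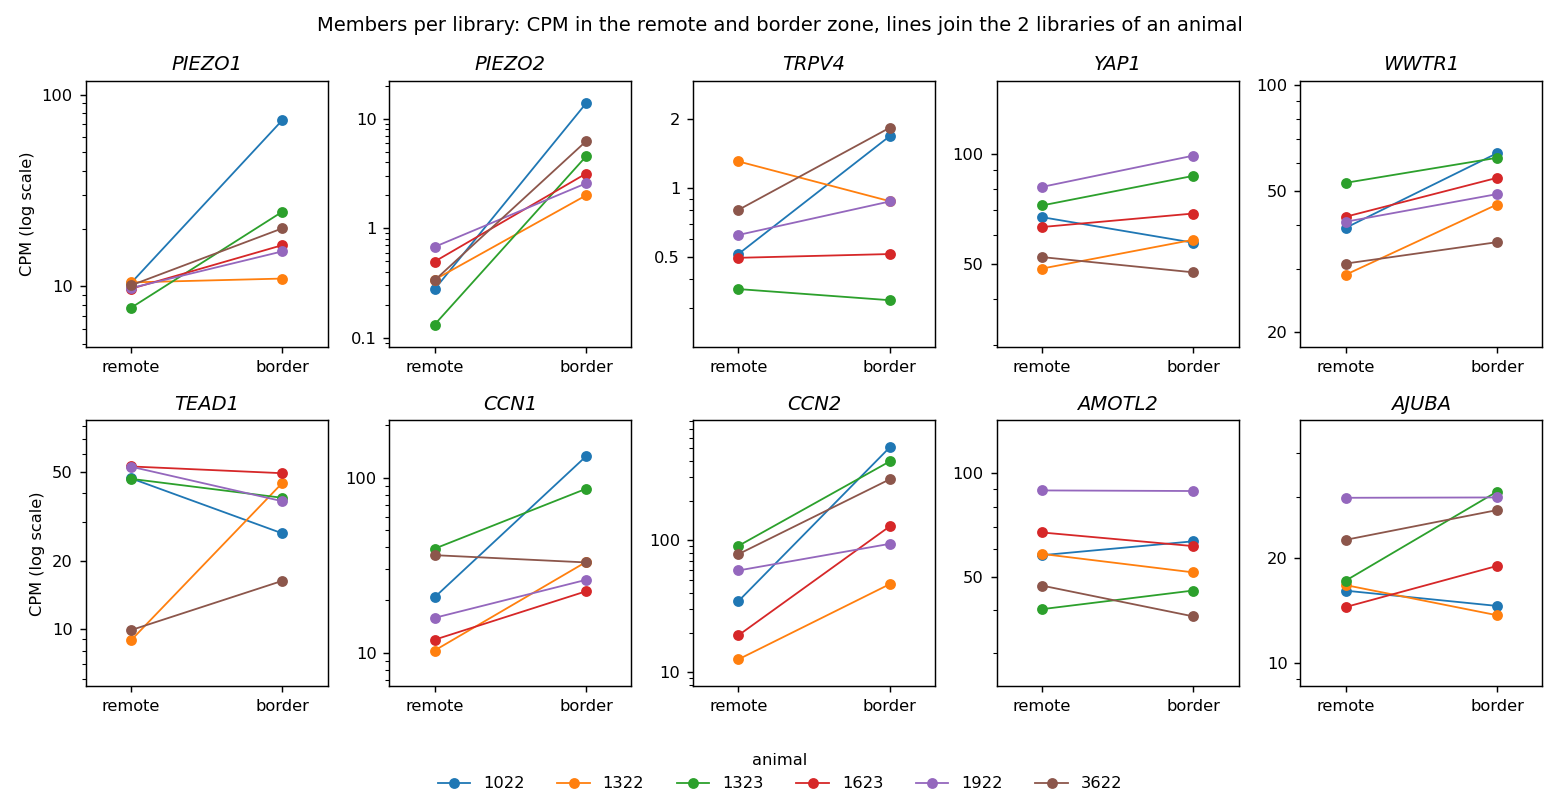
CPM of the 10 genes on a log scale in the remote zone (left) and border zone (right) of each panel, where a point is a library, a colour an animal and a line joins both libraries of that animal. PIEZO2 lay between 0.132 and 0.676 CPM in the remote zone and between 1.997 and 13.8 CPM in the border zone, whereas the points of AMOTL2, YAP1 and AJUBA overlapped between regions.

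Among the channels, PIEZO2 differed most between the regions. The gene, listed as ENSSSCG00000034765 and annotated at chr6:97644115-97945693, is best known as the touch and stretch channel of sensory neurons. Its border zone CPM was 13.8 in animal 1022, 1.997 in 1322, 4.53 in 1323, 3.16 in 1623, 2.57 in 1922 and 6.23 in 3622. Its remote zone CPM, in the same order of animals, was 0.277, 0.339, 0.132, 0.496, 0.676 and 0.334. The lowest border zone library was thus above the highest remote zone library. The fitted log2 fold change was 3.85 (SE 0.54), or 14.4-fold. Within animals the log2 difference ranged from 1.81 in animal 1922 to 5.27 in animal 1022, with a median of 3.20. The remote zone values rest on 4 to 13 counts per library and the border zone values on 41 to 419, so the low side of each ratio is imprecise. PIEZO2 met the filter on low counts through the border zone, where it was high, and with at least 10 counts required in every library it was not tested. A floor of 3 counts stood at 0.0883 to 0.183 CPM in border zone libraries, and at 0.0988 to 0.201 CPM in those of the remote zone. PIEZO2 no longer passed the threshold when animal 1323, 1623 or 3622 was left out, and its log2 fold change without each animal in turn or without a single doubted library was between 3.22 and 4.22.

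PIEZO1, the stretch channel of endothelial cells, red cells and fibroblasts, is listed as ENSSSCG00000035230 and annotated at chr6:914480-967113. Its border zone CPM was 73.7 in animal 1022, 11.0 in 1322, 24.5 in 1323, 16.4 in 1623, 15.2 in 1922 and 20.0 in 3622. Its remote zone CPM was 10.4, 10.5, 7.70, 9.69, 9.77 and 10.1 in the same order. The remote zone values lay within 1.36-fold of each other, whereas those of the border zone spanned 6.72-fold, and the border zone library of animal 1322 was barely above the highest remote zone library. The fitted log2 fold change was 1.47 (SE 0.39), or 2.77-fold, and did not pass the threshold. Within animals the log2 difference ranged from 0.07 in animal 1322 to 2.82 in animal 1022, with a median of 0.87. Without animal 1022 the fitted value was 0.86. PIEZO1 and CTU2, on the opposite strand, share 2563 bases of annotated gene span, and reads from both cannot be told apart there because the libraries kept no strand. CTU2 itself had a log2 fold change of -0.25.

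TRPV4 was low in both regions. Its border zone CPM was 1.69 in animal 1022, 0.877 in 1322, 0.324 in 1323, 0.515 in 1623, 0.874 in 1922 and 1.83 in 3622, and its remote zone CPM was 0.515, 1.31, 0.362, 0.496, 0.624 and 0.802 in the same order. These values rest on 11 to 51 counts per border zone library and 11 to 27 per remote zone library. The regions overlapped, 4 of 6 animals had the higher value in the border zone, and the log2 fold change of 0.57 (SE 0.47) was close to its standard error. With each animal left out in turn, it ran from 0.28 (without 1022) to 0.88 (without 1322).

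YAP1 and WWTR1, the coactivators, were both well measured and differed little between regions. The border zone CPM of YAP1 ranged from 47.3 to 98.7, with a median of 63.3, and its remote zone CPM ranged from 48.4 to 81.0, with a median of 65.0. Regions overlapped almost fully, and in 4 of 6 animals the border zone was the higher, with a log2 fold change of 0.12 (SE 0.20). Animal 1922 held the highest YAP1 value in both regions. The border zone CPM of WWTR1 ranged from 35.8 to 63.9, with a median of 51.7, and its remote zone CPM ranged from 29.0 to 52.7, with a median of 40.1. In each of the 6 animals the border zone had the higher WWTR1 value, although the ranges overlapped, since each region spanned more between animals than any animal did between regions. Its within-animal log2 difference was between 0.20 and 0.70, and the fitted value was 0.40 (SE 0.18), or 1.32-fold.

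TEAD1, a DNA-binding partner of YAP and TAZ, had its lowest values in 3 libraries. Its border zone CPM was 26.6 in animal 1022, 44.6 in 1322, 38.3 in 1323, 49.2 in 1623, 36.9 in 1922 and 16.4 in 3622. Its remote zone CPM was 46.7, 8.91, 46.5, 52.7, 52.6 and 9.90 in the same order. The remote zone libraries of 1322 and 3622 thus lay far below the other 4, which lay at 46.5 CPM or above, and the border zone library of 3622 was the lowest of its region. The same remote zone libraries had 21.4% and 33.5% of their counts on the 13 mitochondrial protein genes, the highest shares of the 12 libraries, and the lowest TMM factors, 0.814 and 0.671. The part of these library properties in the TEAD1 values was not tested. The log2 fold change was -0.04 (SE 0.43), and it was -0.32 without animal 1322, 0.12 without animal 1022 and 0.17 with the animal as a replicate block, so no direction can be given. TEAD1 shares 3242 and 947 bases with 2 antisense long noncoding RNAs.

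CCN2, which encodes connective tissue growth factor, was the most variable of the targets. Its border zone CPM was 506 in animal 1022, 46.6 in 1322, 396 in 1323, 128 in 1623, 94.1 in 1922 and 290.0 in 3622. Its remote zone CPM was 34.6, 12.5, 90.8, 19.1, 59.2 and 78.6 in the same order. CCN2 was higher in the border zone of every animal, but the regions overlapped, since the border zone library of 1322 was below the remote zone libraries of 1323, 1922 and 3622. The fitted log2 fold change was 2.31 (SE 0.61), or 4.96-fold, and did not pass the threshold. Within animals the log2 difference ranged from 0.67 in animal 1922 to 3.87 in animal 1022, with a median of 2.01. From the lowest to the highest animal, values spanned 10.9-fold in the border zone and 7.24-fold in the remote zone.

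CCN1, the matricellular protein also known as CYR61, followed CCN2 in most animals. Its border zone CPM was 132 in animal 1022, 33.1 in 1322, 86.3 in 1323, 22.5 in 1623, 26.2 in 1922 and 32.9 in 3622. Its remote zone CPM was 20.8, 10.4, 39.4, 11.9, 15.9 and 36.2 in the same order. The regions overlapped and 5 of 6 animals had the higher CCN1 value in the border zone, with animal 3622 as the exception at a log2 difference of -0.14, where CCN2 differed by 1.88. The fitted log2 fold change was 1.31 (SE 0.48), or 2.48-fold, and it was 0.82 without animal 1022. CCN1 lies wholly within the span of ZNHIT6 on the opposite strand, and without strand their reads cannot be told apart where exons overlap. ZNHIT6 had a log2 fold change of -0.33.

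AMOTL2, a motin family protein that binds YAP, and AJUBA, a LIM protein that holds LATS kinases at strained junctions, are regulators that are also induced by YAP. The AMOTL2 CPM ranged from 38.3 to 88.8 in border zone libraries and from 40.2 to 89.2 in remote zone libraries. Its medians were 56.4 and 58.0, and its log2 fold change was -0.04 (SE 0.23), which turned to 0.22 with library totals and to 0.051 without the border zone library of animal 3622. Animal 1922 had the highest AMOTL2 value in both regions, and within animals the log2 difference lay between -0.30 and 0.18. The AJUBA CPM ranged from 13.7 to 31.1 in border zone libraries and from 14.5 to 29.8 in remote zone libraries, with medians of 23.3 and 17.0. The border zone was the higher in 4 of 6 animals for AJUBA, with a log2 fold change of 0.22 (SE 0.25). The 4 targets and regulators therefore split into CCN1 and CCN2, with log2 fold changes above 1, and AMOTL2 and AJUBA, whose fitted differences were smaller than their standard errors.

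**Figure D2:**
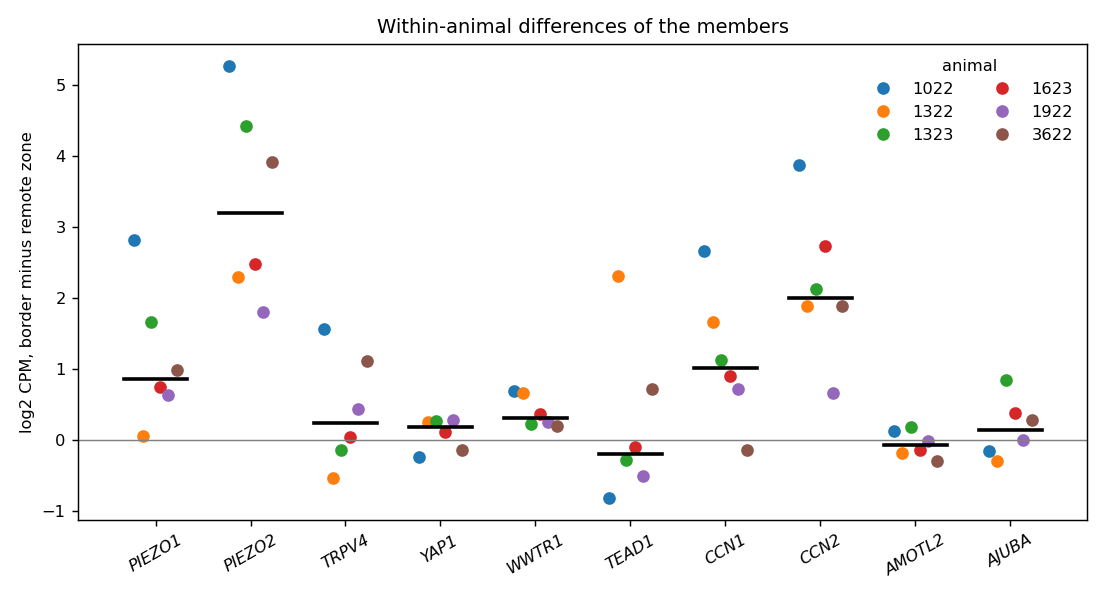
Log2 CPM of the border zone minus that of the remote zone within each animal (y axis) for the 10 genes (x axis), where a point is an animal and a bar the median of the 6 animals. All points of PIEZO1, PIEZO2, WWTR1 and CCN2 lie above 0, the highest points of PIEZO1, PIEZO2, CCN1 and CCN2 are those of animal 1022, and the points of TEAD1 run from -0.81 to 2.31.

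Animal 1022 had the largest difference between its regions for 6 of the 10 genes, PIEZO1, PIEZO2, TRPV4, WWTR1, CCN1 and CCN2. Its border zone library held 45.8% of the CPM summed over the 6 border zone libraries for PIEZO1, 42.8% for PIEZO2, 39.7% for CCN1 and 34.6% for CCN2. For YAP1 that share was 13.7%, for AMOTL2 18.2% and for AJUBA 10.8%. When this single library was left out, PIEZO1 and PIEZO2 passed the threshold, 2 of the 10, beside 307 of 13951 genes tested. When animal 1322 was left out, CCN2, PIEZO1 and PIEZO2 passed, 3 of the 10, beside 519 of 13966 genes tested.

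Fibroblast and matrix markers also differed between the regions and were highest in the border zone library of animal 1022. The summed CPM of 10 such markers, among them COL1A1, POSTN and DCN, was between 3408 and 71063 in border zone libraries, with the highest sum in animal 1022 and the lowest in animal 1322, and between 1185 and 2901 in the remote zone. Of these 10 markers, 9 rose in the border zone by the same test, beside 2.07% of all genes, with a list median log2 fold change of 2.96. As for every gene, none of these markers passed with animal 1623 or 3622 left out. Among the border zone libraries, animal 1322 had the lowest sum and the lowest PIEZO1, PIEZO2 and CCN2 values. Animal 1922 had the second highest sum, 12206 CPM, and the second lowest values of PIEZO1, PIEZO2, CCN1 and CCN2. Of 9 cardiomyocyte markers 0 passed, although all 9 had a log2 fold change below 0, with a median of -0.55. Their summed CPM was lower in the border zone of each of the 6 animals, with 10982 against 55963 in animal 1022. It ran from 10982 to 62416 over the border zone libraries and from 52142 to 92808 over those of the remote zone. Of 10 macrophage markers 0 passed, with a median of 1.58 and sums of 133 to 1671 CPM in border zone libraries and 122 to 233 in remote zone libraries. None of 10 endothelial, 10 smooth muscle and pericyte, 6 Schwann cell or 5 adipocyte markers passed, and their medians were 0.12, 1.10, 0.79 and 1.08. The summed CPM of the Schwann cell markers, listed because PIEZO2 is known from sensory nerves, ran from 6.77 to 38.9 in border zone libraries and from 7.13 to 16.6 in remote zone libraries. For both the macrophage and the Schwann cell markers, the highest border zone sum was that of animal 1022 and the lowest that of animal 1322. LEP, an adipocyte marker, was at 0 in all remote zone libraries. In bulk tissue, more cells of a type and more RNA per cell cannot be told apart, and the part of these cell types in the values of the 10 genes was not tested.

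**Figure D3:**
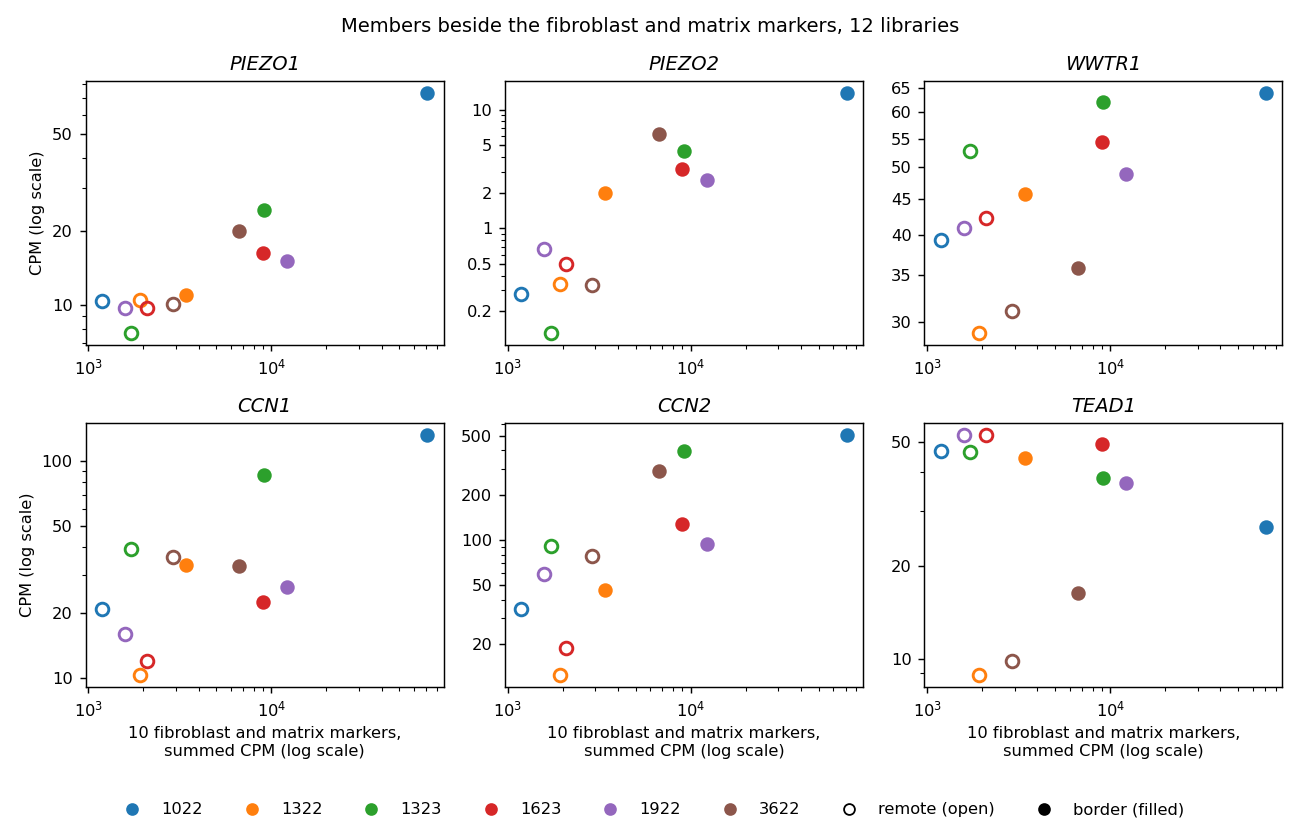
CPM of PIEZO1, PIEZO2, WWTR1, CCN1, CCN2 and TEAD1 (y axis, log scale) against the summed CPM of 10 fibroblast and matrix markers (x axis, log scale), where open points are remote zone libraries, filled points border zone libraries and colours animals. The border zone library of animal 1022 stands apart on the x axis at 71063 CPM and is the highest for PIEZO1, PIEZO2, WWTR1, CCN1 and CCN2, whereas TEAD1 is lowest in the remote zone libraries of animals 1322 and 3622.

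To compare levels between genes, CPM was divided by the length of each gene's RefSeq exons in kb, which may differ from the Ensembl exons on which the reads were counted. In the border zone the median level per kb was 88.9 for CCN2, 17.0 for CCN1, 14.5 for YAP1, 13.1 for AMOTL2, 11.7 for WWTR1, 9.45 for AJUBA, 3.33 for TEAD1, 2.11 for PIEZO1, 0.405 for PIEZO2 and 0.171 for TRPV4. In the remote zone it was 19.9 for CCN2, 14.9 for YAP1, 13.5 for AMOTL2, 9.48 for CCN1, 9.08 for WWTR1, 6.91 for AJUBA, 4.13 for TEAD1, 1.15 for PIEZO1, 0.111 for TRPV4 and 0.0355 for PIEZO2. Neighbours in these orders had overlapping ranges, except AJUBA and TEAD1 in both regions and PIEZO1 and TRPV4 in the remote zone. The channels were thus the lowest of the 10 genes in each region by median, and PIEZO2 and TRPV4 changed places between the regions.

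**Figure D4:**
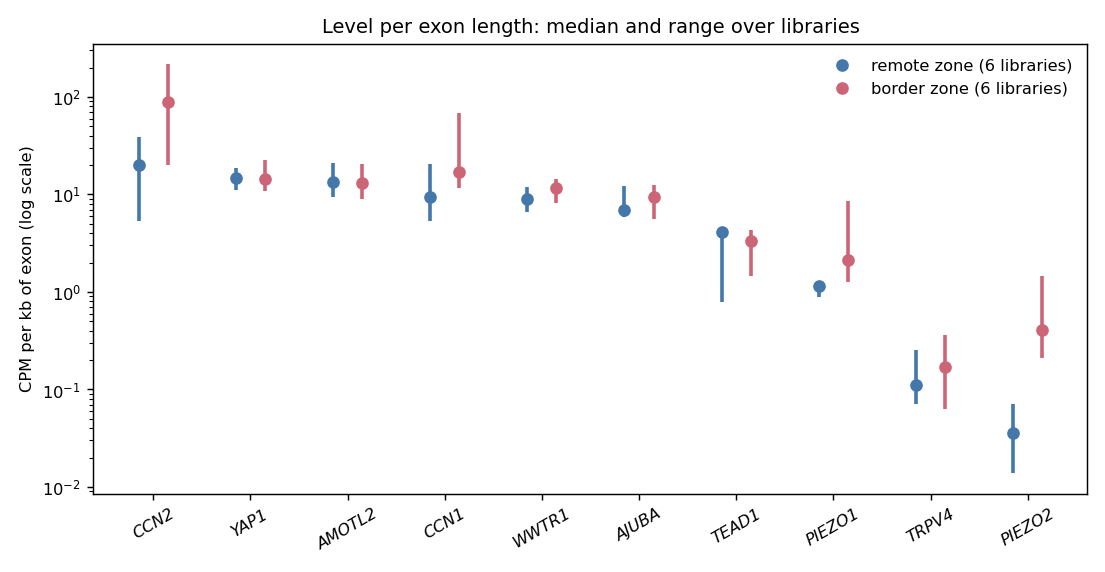
Level of the 10 genes in CPM per kb of exon (y axis, log scale), where points are medians and vertical lines ranges over the 6 libraries of the remote zone (blue) or border zone (red). CCN2 has the highest median in both regions, 19.9 and 88.9, and PIEZO2 moves from 0.0355 in the remote zone to 0.405 in the border zone with no overlap of its ranges.

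Ratios within a library do not depend on the scaling between libraries. The level of PIEZO1 per kb was 15.9 to 64.4 times that of PIEZO2 in the remote zone and 3.54 to 6.50 times in the border zone, so the ranges of the ratio did not overlap. PIEZO1 was the more abundant of the pair in every library. The level of CCN2 per kb was 0.998 to 3.07 times that of CCN1 in the remote zone, with a median of 1.58, and 1.16 to 7.27 times in the border zone, with a median of 3.47. The ratio of YAP1 to WWTR1 was 1.39 to 2.01 in the remote zone and 0.903 to 2.04 in the border zone.

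Across the 12 libraries, the log2 CPM of PIEZO1 and PIEZO2 had a Pearson r of 0.87, that of CCN1 and CCN2 an r of 0.87, and that of PIEZO1 and CCN2 an r of 0.77. YAP1 had an r of 0.17 with CCN2 and of 0.09 with CCN1, while WWTR1 had an r of 0.64 and 0.67 with them. These are descriptions over libraries that are paired by animal and share the regional difference. The border zone library of animal 1022 held the highest PIEZO1, PIEZO2, WWTR1, CCN1 and CCN2 values, and its weight on these r values was not tested. Among 11716 other genes with a symbol, the pattern most like PIEZO1 was that of KIF21B (r 0.988), followed by RIPK1 (0.981) and DAB2 (0.979). The genes most like PIEZO2 were TNFAIP8L3 (0.953), SORCS2 (0.950) and SFRP1 (0.949), a secreted Wnt antagonist. Those most like CCN2 were EGR2 (0.949), an immediate early transcription factor, ZCCHC7 (0.936) and CNN1 (0.934), the smooth muscle calponin. Those most like CCN1 were C3orf38 (0.932), USP12 (0.931) and DUSP5 (0.930), a phosphatase induced by ERK signalling.

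The remaining genes of the pathway were taken from lists of 77 genes, of which 75 had an identifier and 70 were tested. By the quasi-likelihood test of edgeR, with Benjamini-Hochberg adjustment over all genes tested, 4 of these 70 (5.71%) rose in the border zone and 0 fell, beside the 2.07% of all genes. They were FRMD6, CCDC80, MYOF and CCN4, each higher in all 6 animals. CCN4 met the filter on low counts through the border zone, so the share of 5.71% supports nothing about the lists. With the animal as a replicate block, 1 of the 70, CCDC80, passed. With no filter on low counts CCDC80 was again the only one, of 75 tested, and 0 passed when animal 1323, 1623 or 3622 was left out. FRMD6, MYOF and CCN4 also no longer passed without animal 1922, or without the remote zone library of animal 1322 or 3622.

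Among 11 other mechanosensitive channels tested, 0 passed the threshold. PANX1, a pore of the plasma membrane that releases ATP under stretch, had a log2 fold change of 2.40 (adjusted p = 0.0605), and TRPC6, a cation channel linked to myofibroblast conversion, had 1.77 (adjusted p = 0.0716). The remote zone values of PANX1 rest on 0 to 9 counts per library, so it met the filter through the border zone, as CCN4 did. Without the border zone library of animal 1022 the log2 fold changes were 1.80 for PANX1 and 1.07 for TRPC6. The lowest were TMEM63B at -0.08 and TRPM7 at -0.03.

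Of 15 Hippo kinases and scaffolds, 1 rose. FRMD6, a FERM domain protein upstream of the kinases, ranged from 6.77 to 30.3 CPM in border zone libraries and from 3.01 to 7.25 in remote zone libraries, with a log2 fold change of 1.47 (SE 0.34, adjusted p = 0.0426). MOB1A, the LATS coactivator, had 0.95 (adjusted p = 0.0582). Without the border zone library of animal 1022, FRMD6 had 1.20 and no longer passed (adjusted p = 0.0592), as without that of animal 3622 (adjusted p = 0.0569), and MOB1A had 0.63 and passed (adjusted p = 0.0392). FRMD6 also did not pass in edgeR with DESeq2 size factors (adjusted p = 0.0550) or at least 10 counts in every library (adjusted p = 0.0515). Nor did it pass without animal 1022 (adjusted p = 0.107). FRMD6 passed with library totals, without animal 1322 and by DESeq2's Wald test. In the fit of all libraries, SAV1 and WWC2, the lowest of the list, had -0.13 and -0.06. Of 6 other proteins that bind YAP or LATS, 0 passed, and the motins AMOT and AMOTL1, kin of AMOTL2, had log2 fold changes of 0.86 and 0.80, with the border zone higher in all 6 animals. LIMD1 and WTIP, the LIM proteins most related to AJUBA, had -0.08 and -0.04.

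Of 4 other TEAD factors and cofactors tested, 0 passed. TEAD2 ranged from 22.1 to 39.7 CPM in border zone libraries and from 40.0 to 48.5 in remote zone libraries, and all 6 animals had the lower value in the border zone, with a log2 fold change of -0.51 (adjusted p = 0.0794). TEAD3 had 0.19, TEAD4 0.01, and the cofactor VGLL3 had 1.28 (adjusted p = 0.129), which was 0.60 without the border zone library of animal 1022.

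Of 16 other YAP and TAZ target genes tested, 2 rose. CCDC80, a secreted matrix protein, ranged from 127 to 784 CPM in border zone libraries and from 28.0 to 49.9 in remote zone libraries, with a log2 fold change of 3.10 (SE 0.40, adjusted p = 0.00875). MYOF, a membrane repair protein, ranged from 6.77 to 120 CPM in border zone libraries and from 3.05 to 7.02 in remote zone libraries, with a log2 fold change of 2.82 (SE 0.63, adjusted p = 0.0382). Without the border zone library of animal 1022, MYOF had 1.65 and still passed (adjusted p = 0.00996). It did not pass with the replicate block (adjusted p = 0.0798), with no filter (adjusted p = 0.0923), or without the border zone library of animal 3622 (adjusted p = 0.0534). The lowest values were those of F3, tissue factor, at -0.20 and of LATS2, a kinase that YAP induces as feedback, at 0.07. The list median was 0.59, and 15 of the 16 had a log2 fold change above 0. ARHGEF17 and IGFBP3 were not analysed here.

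Of 3 other CCN proteins tested, 1 rose. CCN4, also known as WISP1, ranged from 0.736 to 45.3 CPM in border zone libraries and from 0.0792 to 0.436 in remote zone libraries, and had a log2 fold change of 5.35 (SE 1.13, adjusted p = 0.0338). Its border zone median was 2.01 CPM, and without the border zone library of animal 1022 its log2 fold change was 3.21 and still passed (adjusted p = 0.0132). Its remote zone values rest on 2 to 9 counts per library, so it met the filter on low counts through the border zone, and it did not pass with no filter (adjusted p = 0.0873) or with the replicate block (adjusted p = 0.0798). CCN3 had 2.12 (adjusted p = 0.0735) and CCN5, which lacks the C-terminal domain, had 1.31 (adjusted p = 0.218), and without that library they had 1.05 and 0.33. Of 17 adhesion and actin genes, 0 passed. ACTN1, the nonmuscle actinin of focal adhesions, had 1.80 (adjusted p = 0.0501) and FLNA, an actin crosslinker, had 1.49 (adjusted p = 0.0861). Without the border zone library of animal 1022, ACTN1 had 1.06 and passed (adjusted p = 0.0105), and FLNA had 0.73. In the fit of all libraries, ILK had -0.46 and SRF, the factor that binds the CArG box, had -0.26.

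**Figure D5:**
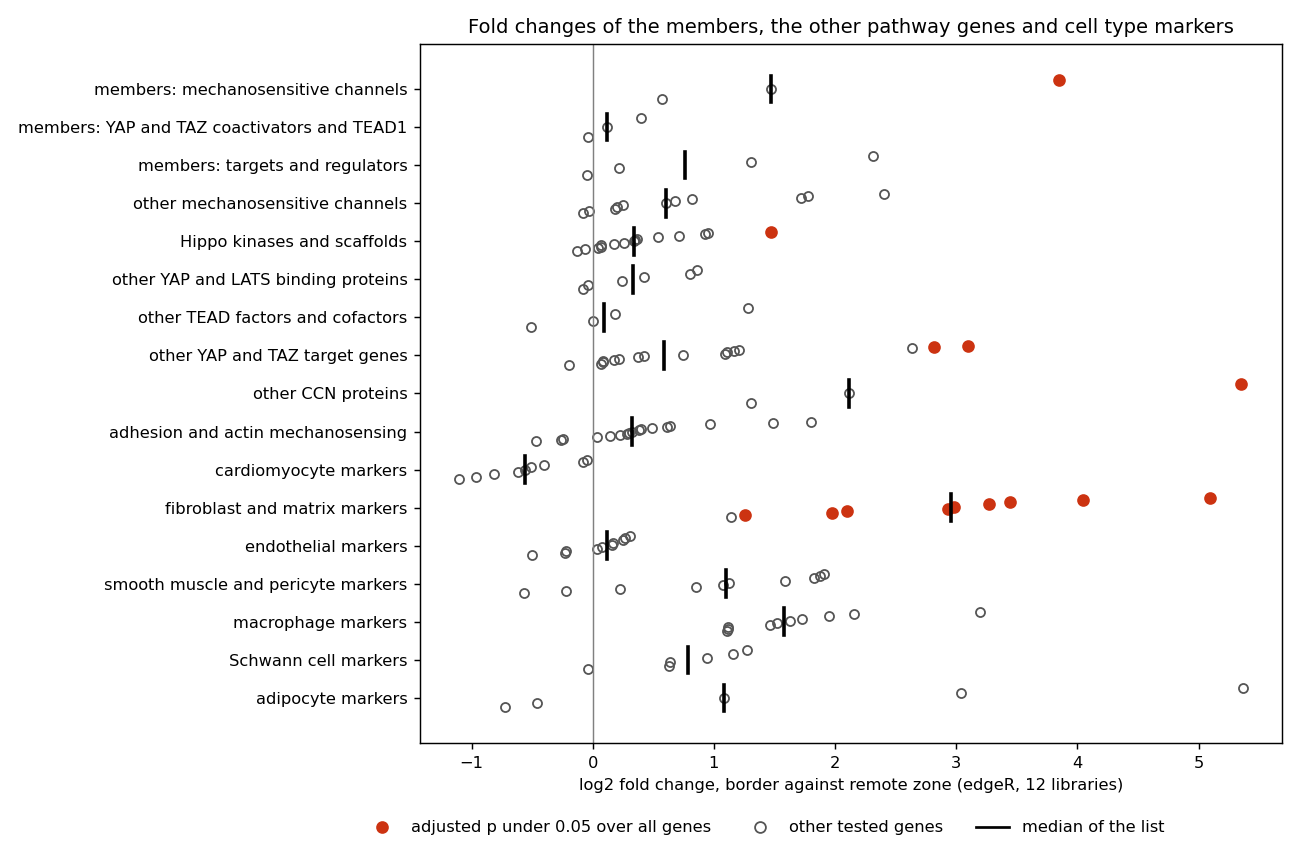
Log2 fold change of border zone against remote zone (x axis) for the genes of each list (y axis), where a point is a gene, filled red points passed an adjusted p of 0.05 over all genes tested and vertical bars are list medians. Filled points are PIEZO2, FRMD6, CCDC80, MYOF, CCN4 and 9 of the 10 fibroblast and matrix markers, and the bar of the cardiomyocyte markers is at -0.55.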

How the data were processed

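The authors made poly(A)-selected, nondirectional libraries and deposited raw counts of reads per gene on Sscrofa11.1, without normalization. The totals were 15130210 to 30526110 per border zone library and 20091415 to 31618680 per remote zone library, and 1 border zone library, that of animal 3622, listed 28024 genes against 16932 to 20148 in the others. How reads matching several genes were counted, and PCR copies, were not resolved here. Organoid cells are human, and reads from them were not separated.

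Border zone and remote zone counts were compared with edgeR 4.0.16 in R 4.3.3, using the filterByExpr rule, TMM factors and the robust quasi-likelihood test, with region as the only term and Benjamini-Hochberg adjustment over the genes tested (threshold 0.05). DESeq2 1.42.0 was an alternative. Standard errors (SE) were taken as the absolute log2 fold change over the root of the F statistic. Log2 CPM used a prior count of 2. The animal numbers pair the libraries, since each animal gave both. Their deviations from the region means correlated across genes with r from -0.03 in animal 1022 to 0.57 in animal 1323. The main fit was run on simulated counts with known changes, and the other steps were not.

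The 10 genes, the pathway lists and the marker lists were chosen with earlier results of these data known. From the pathway lists, the text names each gene past the threshold and the 2 genes with the highest and the 2 with the lowest fold change per list. Likeness names the 3 genes with the highest r, shown for all 10 genes. CTU2 and ZNHIT6 are named only as overlapping genes. MYH7 and S100B were not analysed here. Alternatives were the animal block, other scalings, filters and prior counts, DESeq2, and each animal left out. Leaving out single remote zone libraries (1322, 3622) was added after seeing the data.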

Additional observations from a re-analysis of the deposited data

Results flagged for a closer look

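Of 20 groups of 6 libraries examined, 2 regions for each of the 10 genes, 1 held a library far from the others. Chance marks about 1 in 20 such groups. The remote zone library of animal 1323 was the lowest for PIEZO1, at a log2 CPM of 2.96 (7.70 CPM), where the next lowest was at 3.29. The gap was 0.749 of the whole range of the remote zone.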

How the results depend on the processing

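The number of genes past the threshold depended strongly on the setting. Against 287 genes of all tested, 1 of the 10 genes and 4 of the 70 pathway genes, the paired fit with the animal as a replicate block gave 41, 1 and 1. DESeq2 size factors in edgeR gave 211, 1 and 3. Scaling by library totals gave 1551, 4 (CCN1, CCN2, PIEZO1 and PIEZO2) and 16, and shifted the median over all genes from 0.04 to 0.32 on the log2 scale. No filter gave 139 of 30085, 1 of 10 and 1 of 75 genes tested. At least 10 counts in every library gave 149 of 12123, 0 of 9 and 2 of 68, since PIEZO2 was not tested there. DESeq2's Wald test, run on 30085 genes of which 13397 had no adjusted p, called 1724 (1415 higher and 309 lower). Of the 10 genes it called 3 (CCN2, PIEZO1 and PIEZO2), and of 75 pathway genes 18 (17 higher and 1 lower). Leaving out animals or single libraries gave 0 to 519 genes, 0 to 3 of the 10 and 0 to 6 of the 69 to 72 pathway genes tested. Without animal 1623 or 3622, edgeR called 0 genes, with 2662 and 2448 at an unadjusted p under 0.05. Without animal 1323 it called 3 genes, without 1922 15 and without 1022 163. Without the border zone library of 3622 it called 156, and without the remote zone library of 1322 or 3622 18 and 48. With animal 1323, 1623 or 3622 left out, 0 of the 10 genes passed, with 5, 4 and 5 at an unadjusted p under 0.05. The cause was not tested.

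PIEZO2, the called gene of the 10, kept its direction wherever it was tested. TEAD1, at -0.04, turned to 0.17 with the replicate block and 0.14 with library totals, and lay between -0.32 and 0.12 with animals or libraries left out. AMOTL2, also at -0.04, turned to 0.051 without the border zone library of animal 3622. Of 159 fold changes of the 10 genes under alternatives, 3 moved by more than the standard deviation of the gene's within-animal log2 differences. All 3 were with library totals, namely YAP1 at 0.38, WWTR1 at 0.68 and AMOTL2 at 0.22. That standard deviation was 1.37 for PIEZO2, 1.15 for TEAD1 and 0.97 for PIEZO1, so sizeable shifts of these genes were not counted as moved. Fold changes near 0 changed sign in 29 of 428 values of 27 named pathway genes. With library totals TMEM63B was 0.19, TRPM7 0.25, SAV1 0.11, WWC2 0.17, LIMD1 0.17, WTIP 0.27 and F3 0.094. TEAD4 was -0.0038 with the replicate block, -0.036 with DESeq2 size factors, -0.044 with no filter and -0.046 by DESeq2. Leaving out animals or libraries gave -0.11 to 0.035 for TRPM7, -0.18 to 0.048 for WWC2, -0.21 to 0.0042 for LIMD1, -0.22 to 0.12 for WTIP, -0.072 to 0.084 for TEAD4, -0.37 to 0.15 for F3 and -0.025 to 0.14 for LATS2. Counting depth limits PIEZO2, CCN4 and PANX1 in the remote zone and TRPV4 in both regions.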

Other observations

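For the other genes among the 10, the patterns most like each over the 12 libraries, as descriptions with no test, were those of G6PC3 (r 0.936), TBXA2R (0.934) and PNPLA6 (0.916) for TRPV4, and of PALM2AKAP2 (0.941), SYNPO2 (0.921) and ADRA1D (0.916) for YAP1. MMP16 (0.967), CAND1 (0.963) and ZBED6 (0.960) were most like WWTR1, and IGSF9B (0.988), FAM120C (0.975) and AGGF1 (0.972) most like TEAD1. RETSAT (0.900), CABIN1 (0.897) and TBC1D13 (0.891) were most like AMOTL2. For AJUBA the highest values, GPA33 (0.864), CPAMD8 (0.814) and AIF1L (0.801), were the lowest of the 10 sets. Both libraries of an animal enter each r, so the points are not independent.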
